A study of Arabidopsis thaliana with 9 samples.

Results

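A set of 154 genes stood lower than wild type (WT) in roots that overexpress ERF13 and higher than WT in roots of the line titled erf13-3. They were chosen by their levels, in FPKM (fragments counted for a gene, scaled for transcript length and library size), averaged over the 3 libraries of a genotype, with a gene that a library does not list taken as 0. A member has an erf13-3 mean of at least 1 FPKM and of at least 2 times the WT mean, a 35S:ERF13:MYC mean of at most 0.5 of the WT mean, and libraries of the 3 genotypes that do not overlap. Of 24140 genes listed in at least 1 library, 18674 reached an erf13-3 mean of 1 FPKM. Of those, 990 were at least 2 times WT in erf13-3, 204 of these were also at or below 0.5 of WT in 35S:ERF13:MYC, and 162 of these had no overlap, which is 0.868% of the 18674. A further 8 genes that met the rule are not described here, which leaves the 154. Since these values chose the members, the members' differences between genotypes are given below as descriptions, with no test.

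RNA was sequenced from roots of Arabidopsis thaliana seedlings raised for 9 days on 1/2 MS medium, in 3 libraries for each of WT, 35S:ERF13:MYC and erf13-3. In 35S:ERF13:MYC the cauliflower mosaic virus 35S promoter, which is active in most plant tissues, drives MYC-tagged ERF13, and the genotype label calls it an overexpression line. The labels of the last line conflict. Its titles read erf13-3, its genotype label and the header of its comparison table name an SRDX line of ERF13, and the series text drops the 1 from the gene's name. SRDX is a short peptide that turns the transcription factor it is fused to into a repressor. The number of independent lines, of pooled seedlings and of growth batches is not given in the labels, so the spread between libraries may be partly technical.

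Each library held between 12147128 and 12324144 expected counts and listed 21952 to 22240 genes. ERF13 itself (AT2G44840) stood at 0.96 to 1.25 FPKM in WT, at 773 to 905 FPKM in 35S:ERF13:MYC and at 2595 to 3043 FPKM in the libraries labelled erf13-3. Both lines thus carried far more ERF13 transcript than WT, so the name erf13-3 does not stand for absence of that transcript, and the counts do not tell a transgene from the endogenous gene. All 12 root marker genes, among them SCR and PYK10, were above 0 in every library. Their summed level was 11368 to 13589 FPKM in WT, 10948 to 12443 in 35S:ERF13:MYC and 8235 to 9023 in erf13-3. PYK10 made up most of that sum, and the order differed without it: the other 11 markers summed to 423 to 648 FPKM in WT, 295 to 305 in 35S:ERF13:MYC and 640.2 to 917 in erf13-3. In bulk roots, fewer cells of a type and less RNA per cell cannot be told apart.

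ERF13 belongs to the AP2/ERF family of plant transcription factors, whose DNA-binding domain is best known for contacts with the GCC box of ethylene- and pathogen-responsive promoters. Roots detect microbes through receptor kinases at the cell surface, such as the flagellin receptor FLS2, and the signal passes through calcium, kinases and WRKY factors to defence genes. Roots also hold plastids that in the dark express few photosynthesis genes, and that can form chloroplasts when the root is lit or when GLK factors are active.

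The members were sorted by the annotated product into 8 roles, after the membership was known. There were 22 genes of immune perception and signalling, 22 of cell wall, cuticle and other secreted proteins, 19 of photosynthesis and the chloroplast, 14 transcription regulators, 12 oxidoreductases and other enzymes of specialised metabolism, 12 genes of metal, nitrogen and sugar use, 10 of hormone synthesis and response, and 8 with a C1 domain. The other 35 were placed in none of these roles, which does not show that they have none of them. Sorted with the wall and secreted proteins were also PRF4, RIC10 and ROPGEF13, whose actin- or ROP-related products act inside the cell. The median member stood at 1.72 FPKM in WT, 0.503 in 35S:ERF13:MYC and 5.90 in erf13-3. Its erf13-3 level was 2.87 times WT (range 2.01 to 35.3), and its 35S:ERF13:MYC level was 0.317 of WT (range 0 to 0.496). Most members were therefore scarce in WT roots, with 59 below 1 FPKM, 61 from 1 to 10, 32 from 10 to 100 and 2 at 100 or more.

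**Figure D1:**
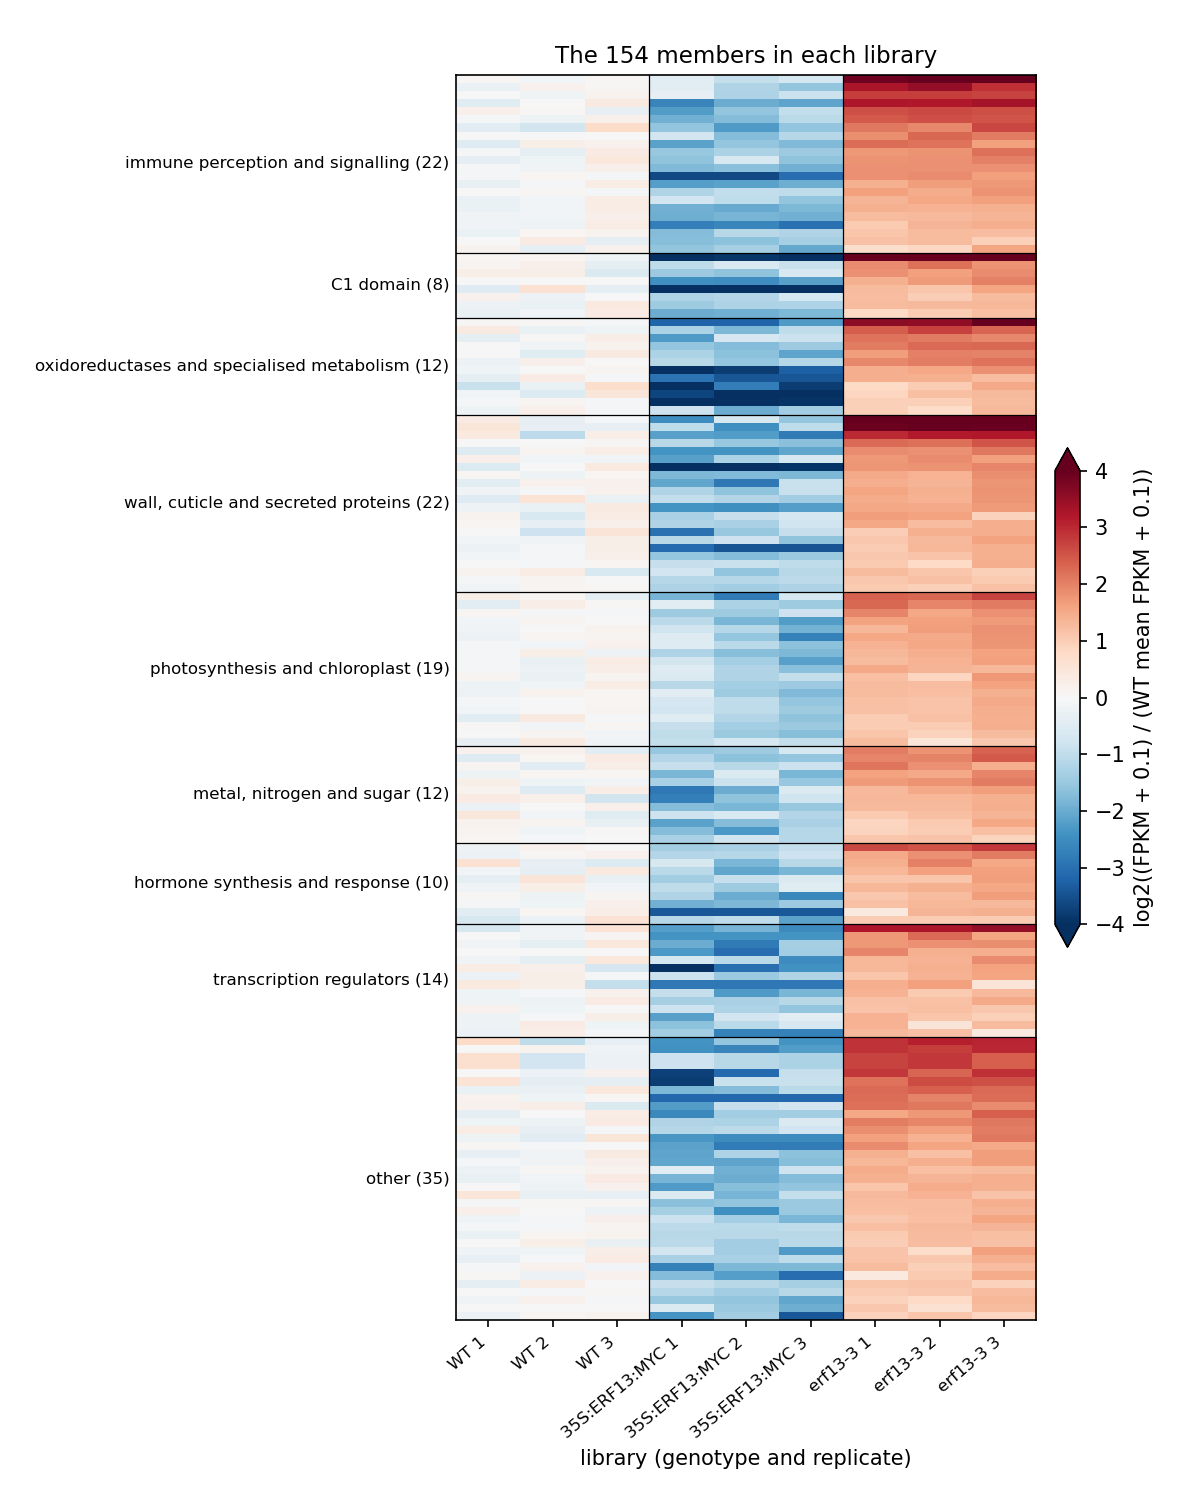
Heat map of the 154 members (rows, grouped by role with the number of members) in the 9 libraries (columns), coloured by log2 of FPKM + 0.1 over the WT mean + 0.1, with colours saturated at 4 in either direction. Every member is blue in the 3 libraries of 35S:ERF13:MYC and red in the 3 of erf13-3 because the rule required it. The ratio of erf13-3 to WT ranged from 2.19 to 35.3 in the immune rows and from 2.09 to 33.4 in the wall and secreted rows.

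A fit across all 19714 genes that passed a count filter (edgeR's quasi-likelihood test, Benjamini-Hochberg adjusted p under 0.05) called 144 of the 154 members lower in 35S:ERF13:MYC, against 17.7% of all genes tested. It called 149 higher in erf13-3, against 13.6% of all genes, and 140 in both directions, against 3.18%. The rule used both contrasts, so these counts only state how many members also pass that test. The 10 members not called lower in 35S:ERF13:MYC were BETA-TIP, AGL102, AT2G28605, PPL1, RR17, AT4G12495, AT4G12500, NCED2, HEC3 and AT5G24316. The 5 not called higher in erf13-3 were PYL3, AT2G28605, AT2G34990, AT5G36130 and LOB. In the authors' deposited tables all 154 were listed as higher in erf13-3. The authors' deposited table for 35S:ERF13:MYC listed 95 as lower, and the other 59 are the members with a WT mean below 1 FPKM.

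At the limits of the rule, ENH1 was the member nearest to the erf13-3 limit, at 2.01 times WT, while AT4G27850 fell short of 2 in the next decimals (1.998). For 35S:ERF13:MYC, AT5G24230 stood just inside at 0.496 of WT. AT1G13480 (0.502), the light-harvesting gene LHCB2.1 (0.506) and the iron reductase gene FRO2 (0.507) stood just outside. NCED2 had the lowest erf13-3 mean of any member, at 1.03 FPKM, and SKS9, at 0.917 FPKM, was the nearest gene left out for its level.

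Immune perception and signalling members had the widest range of ratios among the roles in erf13-3, from 2.19 to 35.3 times WT (median 3.70), and stood at a median of 0.256 of WT in 35S:ERF13:MYC. FLS2 (AT5G46330), the receptor kinase that binds bacterial flagellin, had 0.1, 0.08 and 0.1 FPKM in WT, 0.04, 0 and 0.02 in 35S:ERF13:MYC, and 2.78, 3.54 and 3.56 in erf13-3. Its erf13-3 mean was 35.3 times that of WT, the largest such ratio among the members. Its level in the other genotypes rested on few reads, with 14 counts over the 3 WT libraries and 3 over those of 35S:ERF13:MYC, a ratio of 4.67 (exact 95% interval 1.302 to 25.3, counting error only).

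FRK1 (AT2G19190), a receptor kinase induced by flagellin and used as a marker of that response, had 0.15, 0.24 and 0.21 FPKM in WT, 0.12, 0.03 and 0 in 35S:ERF13:MYC, and 2.77, 3.35 and 2.17 in erf13-3. WRKY30 (AT5G24110), a WRKY transcription factor, had 0.25, 0.19 and 0.7 FPKM in WT, 0.06, 0 and 0.06 in 35S:ERF13:MYC, and 1.98, 1.72 and 2.94 in erf13-3. WT replicate 3 was the highest WT library of WRKY30, at more than the sum of the other WT libraries, and 35S:ERF13:MYC held 2 counts against 18 in WT (ratio 9.00, interval 2.16 to 80.0). PROPEP2 (AT5G64890), the precursor of an elicitor peptide that plants release on damage, had 2.73, 3.22 and 4.85 FPKM in WT, 1.12, 2.27 and 1.12 in 35S:ERF13:MYC, and 12.7, 12.98 and 14.7 in erf13-3. FRK1, WRKY30 and PROPEP2, and the members given below by group means alone, were singled out after their values had been seen.

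The most abundant immune members changed by smaller factors. AT5G48540, a protein related to receptor kinases, had 28.5, 29.6 and 27.1 FPKM in WT, 12.3, 14.4 and 13.8 in 35S:ERF13:MYC, and 88.4, 80.4 and 99.5 in erf13-3. EXO70H2 (AT2G39380), a subunit of the exocyst, which tethers secretory vesicles to the plasma membrane, had 17.9, 20.2 and 26.8 FPKM in WT, 5.57, 5.27 and 6.16 in 35S:ERF13:MYC, and 58.3, 56.5 and 57.7 in erf13-3. The lowest erf13-3 library of EXO70H2 was above its highest WT library by a wide margin, and the 3 erf13-3 libraries lay close together. A gene on the opposite strand, AT2G39375, is also a member and shares 2078 bases with it. Its 13.7, 15.7 and 21.3 FPKM in WT, 4.62, 4.2 and 4.96 in 35S:ERF13:MYC, and 45.8, 43.2 and 45.9 in erf13-3 followed those of EXO70H2, and without a stated strand setting reads of the 2 genes cannot be told apart.

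Neighbouring receptor kinase genes on chromosome 1 were both members. WAKL4 (AT1G16150) had 1.43, 1.55 and 1.43 FPKM in WT, 0.03, 0.03 and 0.09 in 35S:ERF13:MYC, and 5.47, 5.66 and 4.82 in erf13-3. WAKL5 (AT1G16160) had 0.75, 0.65 and 0.91 FPKM in WT, 0.13, 0.16 and 0.31 in 35S:ERF13:MYC, and 4.64, 5.06 and 4.84 in erf13-3. Both encode wall-associated kinase-like proteins, a family whose relatives bind pectin. In 35S:ERF13:MYC, WAKL4 fell to 0.03401 of WT and WAKL5 to 0.2597, whereas in erf13-3 the order was reversed, with WAKL4 at 3.62 and WAKL5 at 6.29 times WT. MLO12 (AT2G39200), of a family known from powdery mildew susceptibility, went from a WT mean of 17.8 FPKM to 4.65 and 44.3, and CMPG1 (AT1G66160), a ubiquitin ligase induced early by elicitors, from 5.43 to 2.497 and 15.8, in 35S:ERF13:MYC and erf13-3, respectively.

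Among the remaining immune members were further receptor kinases and relatives: CRK10 (AT4G23180), LECRKA4.1 (AT5G01540), AT3G45330, AT1G05700, AT1G63600 and AT3G22060. The resistance genes RPP4 (AT4G16860) and RPP8 (AT5G43470), which encode intracellular receptors of a downy mildew, were members, and each has a near-identical copy in the genome, so that their counts are uncertain. The calcium channel gene CNGC4 (AT5G54250), the calcium-binding proteins AT1G29020 and AT1G21550, and AT4G20000, which carries a VQ motif of the kind that binds WRKY factors, complete the role. Of these, RPP4 had the largest ratio of erf13-3 to WT, 10.9, followed by AT1G29020 at 10.5. AT1G29020 had 0.57, 0.85 and 1.1 FPKM in WT, 0.05, 0.14 and 0.12 in 35S:ERF13:MYC, and 8.71, 8.47 and 9.39 in erf13-3. Of all 22, 11 had a WT mean below 1 FPKM. WT replicate 3 was the highest WT library for 16 of the 22.

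The W-box, the site that WRKY factors bind, was searched as TTGACC and as TTGACT on both strands in the 250 bases before the annotated start of each gene. These forms differ in the last base, so a position can match only 1 of them. Either form occurred in 69 of 154 member promoters (44.8%) and in 6842 of the 23943 promoters of protein-coding genes listed in the files (28.6%). It occurred in 14 of 22 immune promoters, 6 of 8 C1 domain promoters, 8 of 12 oxidoreductase promoters and 8 of 14 promoters of transcription regulators. Members placed in none of the roles had it in 19 of 35 promoters. The counts were 4 of 12 for metal, nitrogen and sugar use and 3 of 10 for hormones. They were 5 of 22 for wall and secreted proteins and 2 of 19 for photosynthesis. Genes at least 2 times WT in both lines had it at 52.1%, the 78 genes of the mirrored rule (higher in 35S:ERF13:MYC, lower in erf13-3) at 32.1%, and genes at or below 0.5 of WT in both lines at 25.4%. Of the 12 member promoters with 3 matches, the 7 of immune and C1 domain genes are shown here, with that of FRK1, which has 2. The sequences are from the TAIR10.1 assembly of RefSeq, read in the direction of the gene from 250 bases before its start to the last base before it, and capitals mark the W-box on either strand. None of these 8 windows reaches into another annotated gene. Some W-box matches of other members did lie inside another gene. Among them were all 3 of CYP71B3 and that of AT5G43440, both oxidoreductases, and that of the photosynthesis member AT2G28605.

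WAKL5 (AT1G16160), chr1:5535516-5535765, plus strand: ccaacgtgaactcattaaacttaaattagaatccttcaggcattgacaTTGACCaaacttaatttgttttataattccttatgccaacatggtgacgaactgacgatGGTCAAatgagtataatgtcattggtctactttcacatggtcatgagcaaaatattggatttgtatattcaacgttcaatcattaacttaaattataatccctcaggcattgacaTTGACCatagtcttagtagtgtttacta
AT2G28270, chr2:12053292-12053541, plus strand: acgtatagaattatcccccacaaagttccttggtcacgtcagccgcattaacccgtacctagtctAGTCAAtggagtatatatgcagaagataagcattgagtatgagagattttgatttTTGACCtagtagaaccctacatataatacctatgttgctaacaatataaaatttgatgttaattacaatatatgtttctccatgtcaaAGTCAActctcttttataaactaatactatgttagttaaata
AT3G22060, chr3:7770649-7770898, plus strand: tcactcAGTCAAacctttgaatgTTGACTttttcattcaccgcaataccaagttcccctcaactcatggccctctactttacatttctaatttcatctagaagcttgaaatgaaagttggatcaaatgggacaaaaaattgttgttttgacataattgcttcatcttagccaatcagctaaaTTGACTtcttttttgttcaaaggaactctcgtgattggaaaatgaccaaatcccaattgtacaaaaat
WRKY30 (AT5G24110), chr5:8154711-8154960, minus strand: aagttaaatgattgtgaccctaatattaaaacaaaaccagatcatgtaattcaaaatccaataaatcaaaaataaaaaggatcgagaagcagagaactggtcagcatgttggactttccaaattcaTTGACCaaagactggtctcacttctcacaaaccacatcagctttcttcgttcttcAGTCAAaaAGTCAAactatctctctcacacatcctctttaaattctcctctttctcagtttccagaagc
AT5G40590, chr5:16252435-16252684, minus strand: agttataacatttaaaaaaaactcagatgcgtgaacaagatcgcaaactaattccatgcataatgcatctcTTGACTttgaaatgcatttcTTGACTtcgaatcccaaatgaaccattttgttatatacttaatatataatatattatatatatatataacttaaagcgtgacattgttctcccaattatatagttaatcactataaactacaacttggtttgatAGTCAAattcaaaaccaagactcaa
FRK1 (AT2G19190), chr2:8329945-8330194, minus strand: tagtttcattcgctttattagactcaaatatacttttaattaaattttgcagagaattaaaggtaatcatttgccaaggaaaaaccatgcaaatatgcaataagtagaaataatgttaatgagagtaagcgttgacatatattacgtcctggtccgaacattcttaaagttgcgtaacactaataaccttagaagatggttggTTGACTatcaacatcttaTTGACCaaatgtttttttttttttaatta
AT2G27660, chr2:11800929-11801178, minus strand: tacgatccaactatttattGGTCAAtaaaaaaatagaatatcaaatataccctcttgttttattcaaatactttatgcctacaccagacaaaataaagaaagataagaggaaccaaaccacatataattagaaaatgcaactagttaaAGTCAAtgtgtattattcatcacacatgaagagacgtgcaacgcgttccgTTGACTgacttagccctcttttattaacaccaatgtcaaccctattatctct
AT5G48540, chr5:19669921-19670170, minus strand: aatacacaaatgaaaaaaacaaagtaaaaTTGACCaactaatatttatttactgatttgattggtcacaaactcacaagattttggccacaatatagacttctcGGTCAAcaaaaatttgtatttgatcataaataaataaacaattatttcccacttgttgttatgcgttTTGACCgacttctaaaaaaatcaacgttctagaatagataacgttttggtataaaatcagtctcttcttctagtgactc

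A match in these windows describes the letters and not a bound site. With the base before the gene counted as -1, the matches of WRKY30 began at -124, -69 and -61 and those of FRK1 at -47 and -29. The GCC box core GCCGCC, searched in the same way, was in 2 of 154 member promoters (1.3%) and in 1.92% of all promoters. Both lie inside a neighbouring gene: that of AT1G32950, at -41, in AT1G32940, and those of AT1G52220, at -181 and -163, in AT1G52230. Among the 78 genes of the mirrored rule, the core was in 6.41%. The evening element AAAATATCT, bound by circadian clock factors, was in 9 of 154 member promoters (5.84%) and in 2.4% of all. Some of its matches in members lay inside another gene. Further motifs were searched. The DRE ACCGAC was in 1.95% of member promoters and 4.93% of all, and its variant GCCGAC in 0.649% and 2.68%. Shares were 5.19% and 6.99% for the G-box CACGTG, and 17.5% and 12.2% for the I-box GATAAG. They were 1.3% and 1.53% for the L1 box TAAATGCA, and 3.25% and 2.97% for its variant TAAATGTA.

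All 8 C1 domain members encode proteins named for cysteine- and histidine-rich C1 domains, small zinc-binding folds that in plants form a large family of mostly unknown function. The most abundant, AT5G40590, had 3.74, 3.81 and 3.31 FPKM in WT, 0, 0.15 and 0.07 in 35S:ERF13:MYC, and 72.1, 104 and 83.4 in erf13-3. Its erf13-3 mean was 23.9 times WT, and it was all but absent from 35S:ERF13:MYC, with 3 counts in all against 148 in WT (ratio 49.3, interval 16.6 to 242). AT2G28270 had 1.32, 2.97 and 1.49 FPKM in WT, 0 in every library of 35S:ERF13:MYC, and 4.76, 4.32 and 6.01 in erf13-3. Against a floor of 3 counts per library, its WT level was at least 7.78-fold higher and its erf13-3 level at least 20.1-fold higher than that of 35S:ERF13:MYC. The other C1 members, AT5G43520, AT2G27660, AT2G44370, AT3G11370, AT3G11390 and AT1G44020, stood between 1.1 and 38.2 FPKM in erf13-3. The lowest, AT1G44020, has a near-identical copy, AT1G44030, so its value is uncertain.

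Other genes of the C1 family were also higher in erf13-3 and lower in 35S:ERF13:MYC at larger shares than genes in general. RefSeq names 151 such genes, of which 141 are listed in the files and 90 have an erf13-3 mean of at least 1 FPKM. The 82 among these that are no members are set here beside the 18512 genes that pass the same minimum and are no members. Of the 82, 72 (87.8%) had an erf13-3 mean FPKM above WT, against 70.1% of the 18512, and 51 (62.2%) had a 35S:ERF13:MYC mean below WT, against 36%. A level of at least 2 times WT in erf13-3 was reached by 20 of the 82 (24.4%, against 4.47%), and a level of at most 0.5 of WT in 35S:ERF13:MYC by 4 (4.88%, against 3.62%). By edgeR, which scales by TMM factors, 39 of 81 tested were called higher and 4 lower in erf13-3, against 13.4% and 13.3% of the genes past the same minimum. In 35S:ERF13:MYC 22 of 81 were called lower and 4 higher, against 17.7% and 13.6%. The minimum was set on the erf13-3 level, so it favours genes that are high there.

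Oxidoreductases and other enzymes of specialised metabolism had the deepest median fall, to 0.0942 of WT in 35S:ERF13:MYC, and stood at a median of 3.64 times WT in erf13-3. The most abundant were FAD-binding enzymes of the berberine bridge family, some of which oxidise monolignols or cell wall sugars. AT1G30720 had 24.4, 27.99 and 24.8 FPKM in WT, 0.95, 0.84 and 1.6 in 35S:ERF13:MYC, and 49.6, 49.4 and 62.7 in erf13-3. Its neighbour AT1G30730 had 13.8, 15.6 and 16.7 FPKM in WT, 0.62, 1.01 and 1.52 in 35S:ERF13:MYC, and 42.2, 45.03 and 55.1 in erf13-3. A further gene of the family, AT1G26420, had 0.84, 0.84 and 0.76 FPKM in WT, 0, 0 and 0.09 in 35S:ERF13:MYC, and 10.9, 10.7 and 16.9 in erf13-3. All 3 were low in 35S:ERF13:MYC. In erf13-3 AT1G26420 reached 15.8 times WT and the neighbours 2.09 and 3.08 times. For AT1G26420 the 2 counts in 35S:ERF13:MYC against 55 in WT give a ratio of 27.5 (interval 7.26 to 233).

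Cytochrome P450 genes were low in 35S:ERF13:MYC as well. CYP716A2 (AT5G36140), whose family oxidises triterpenes, had 3.91, 2.87 and 5.92 FPKM in WT, 0.24, 0.08 and 0 in 35S:ERF13:MYC, and 7.83, 9.96 and 10.6 in erf13-3. The adjacent AT5G36130 had 1.55, 2.45 and 4.83 FPKM in WT, 0, 0.35 and 0.12 in 35S:ERF13:MYC, and 5.15, 6.1 and 8.61 in erf13-3. WT replicate 3 was the highest WT library of both. CYP71B3 (AT3G26220) had 0.73, 1.24 and 0.95 FPKM in WT, 0.04, 0 and 0 in 35S:ERF13:MYC, and 2.82, 2.76 and 2.43 in erf13-3, and a single count over the 3 libraries of 35S:ERF13:MYC stood against 68 in WT (ratio 68.0, interval 11.8 to 2725). CYP78A5 (AT1G13710), known from the control of organ size, and SSL4 (AT3G51420), related to strictosidine synthase, were scarcer. The terpene synthase gene AT3G29410, the acyltransferase gene AT5G42830 and the 2-oxoglutarate-dependent oxygenase genes AT5G43440 and AT1G03400 complete the role.

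The most abundant members of all encode secreted proteins. AT5G46890, of the lipid-transfer protein family, had 442, 505 and 465 FPKM in WT, 214, 213 and 229 in 35S:ERF13:MYC, and 998, 1064 and 963 in erf13-3. A near-identical copy, AT5G46900, makes this value uncertain. AT5G64100, a class III peroxidase of the cell wall, had 389.7, 397 and 484 FPKM in WT, 145, 127 and 151 in 35S:ERF13:MYC, and 903, 935 and 1131 in erf13-3. Its neighbour AT5G64110, also a peroxidase, had 1.47, 1.47 and 1.53 FPKM in WT, 0.63, 0.46 and 0.4 in 35S:ERF13:MYC, and 7.57, 7.3 and 8.96 in erf13-3. In 35S:ERF13:MYC they stood at 0.333 and 0.333 of WT, while in erf13-3 the scarcer was at 5.33 and the more abundant at 2.34 times WT.

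AT4G22460, a further lipid-transfer protein, had 32.3, 38.4 and 36.97 FPKM in WT, 15.1, 13.7 and 15.1 in 35S:ERF13:MYC, and 74.8, 69.4 and 80.4 in erf13-3. AT4G12500, of the same family, had 0.6, 0.34 and 0.43 FPKM in WT, 0, 0.26 and 0.09 in 35S:ERF13:MYC, and 15.3, 11.97 and 18.4 in erf13-3, so that it stood at 33.4 times WT in erf13-3 and below 1 FPKM elsewhere. The adjacent gene AT4G12495, of unknown product, had 1.93, 0.97 and 0.97 FPKM in WT, 0, 0.65 and 0.65 in 35S:ERF13:MYC, and 6.2, 8.44 and 8.17 in erf13-3. Neither of this pair was called lower in 35S:ERF13:MYC, where AT4G12500 held 4 counts over the 3 libraries against 16 in WT, and AT4G12495 held 4 against 12. ROPGEF13 (AT3G16130), an exchange factor that activates ROP GTPases, had 1.16, 2.58 and 1.42 FPKM in WT, 0.82, 0.7 and 0.6 in 35S:ERF13:MYC, and 5, 4.67 and 6.05 in erf13-3, and it overlaps the photosystem gene PSAH-1 by 788 bases on the opposite strand.

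PRF4 (AT4G29340), a profilin that binds actin inside the cell, was among the remaining members sorted with the wall and secreted proteins. Its means were 8.93 FPKM in WT, 0.41 in 35S:ERF13:MYC and 32.03 in erf13-3. CDEF1 (AT4G30140), a cutinase, stood at 14.6, 2.78 and 44.1 FPKM in the same order. The germin-like cupin gene AT5G38940, which has a near-identical copy, reached 8.92 times WT in erf13-3. The proline-rich protein gene AT5G24316 reached 19.3 times WT from 8 counts in WT. The glycine-rich protein gene GRP5 (AT3G20470), the xyloglucan-modifying enzyme gene XTH26 (AT4G28850), the polygalacturonase gene PGAZAT (AT2G41850) and the ROP effector gene RIC10 (AT4G04900) were members. So were the protease genes CEP1 (AT5G50260), SBT1.3 (AT5G51750), AT4G10510 and AT1G32950, the protease inhibitor gene AT1G72060, the defensin-like gene AT1G77525, AT5G41050 and the lipase gene AT4G16230.

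**Figure D2:**
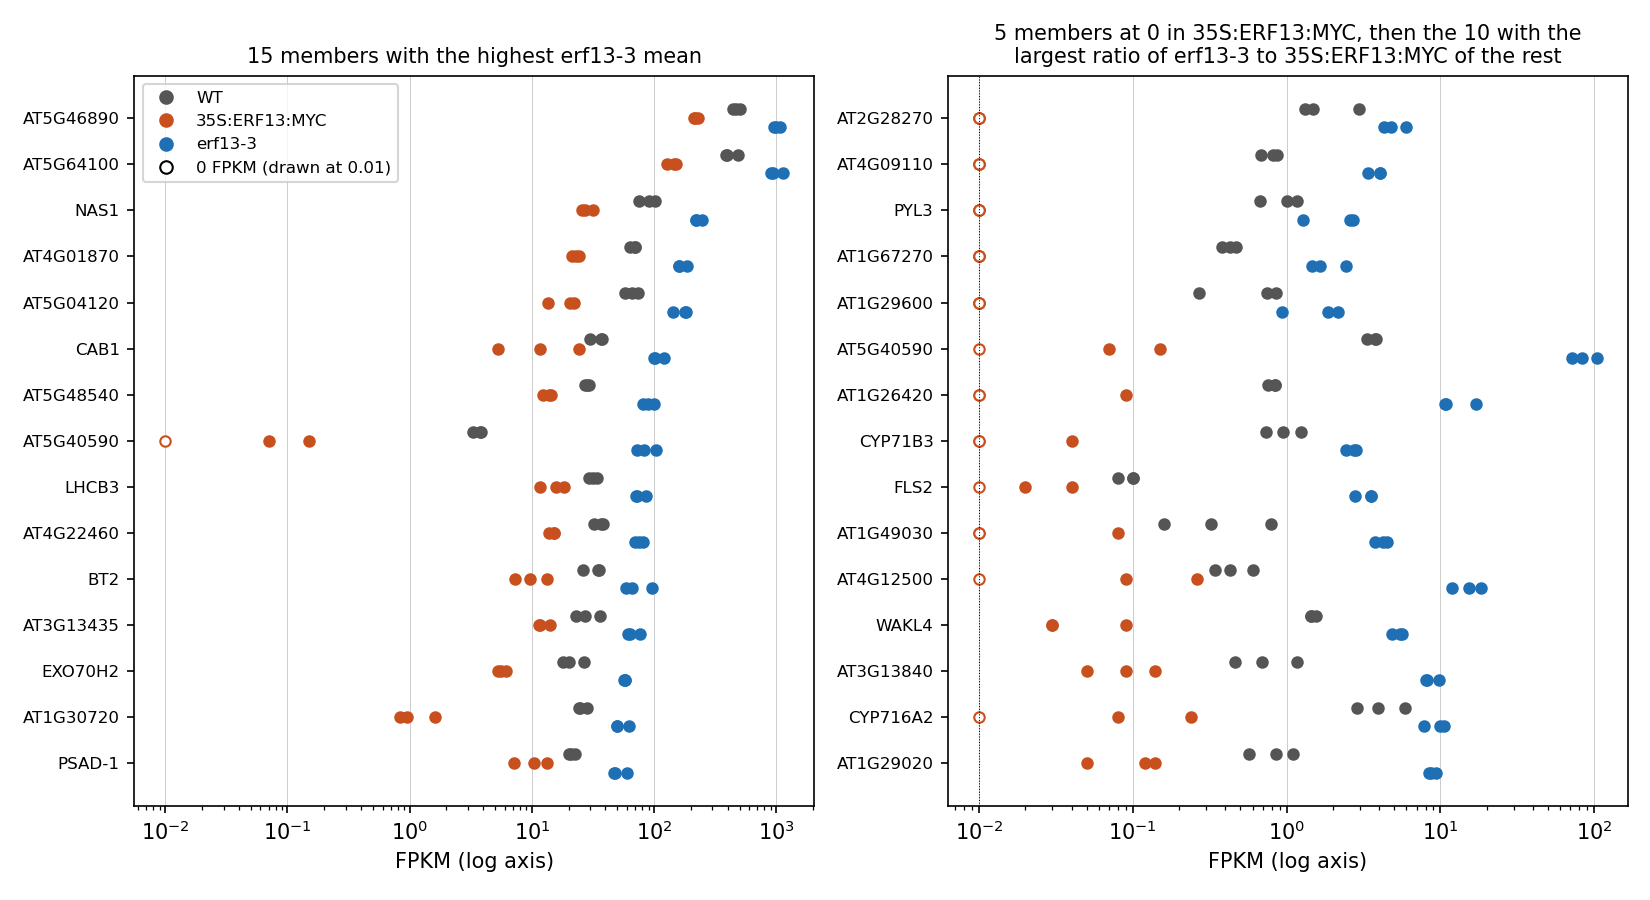
FPKM on a log axis in each of the 9 libraries (points, coloured by genotype) for the 15 members with the highest erf13-3 mean (left), and for the 5 members at 0 in 35S:ERF13:MYC followed by the 10 with the largest ratio of erf13-3 to 35S:ERF13:MYC among the rest (right). Open points are libraries at 0, and the 5 members at 0 have no ratio, only a lower bound. The left panel runs from AT5G46890, at a mean of 1009 FPKM in erf13-3, down to PSAD-1; in the right panel AT5G40590 has the highest erf13-3 level.

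Photosynthesis and chloroplast members formed the most abundant role in WT, with a median of 9.24 FPKM, 3.50 in 35S:ERF13:MYC and 23.9 in erf13-3. Their falls in 35S:ERF13:MYC were the shallowest of all roles, with a median of 0.429 of WT. Light-harvesting antenna genes led the role. CAB1 (AT1G29930), an antenna protein of photosystem II, had 29.8, 36.5 and 37.8 FPKM in WT, 24.1, 11.7 and 5.25 in 35S:ERF13:MYC, and 102, 99.9 and 121 in erf13-3. LHCB3 (AT5G54270) had 29.4, 31.5 and 33.98 FPKM in WT, 18.4, 15.7 and 11.7 in 35S:ERF13:MYC, and 71.8, 70.5 and 86.1 in erf13-3. LHCA2 (AT3G61470), of the photosystem I antenna, had 13.5, 12.1 and 13.8 FPKM in WT, 6.84, 5.1 and 4.59 in 35S:ERF13:MYC, and 26.5, 26.6 and 35.9 in erf13-3. In all 3, replicate 1 of 35S:ERF13:MYC was the highest and replicate 3 the lowest of that line.

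Subunits of photosystem I followed the same library order. PSAD-1 (AT4G02770) had 20.1, 20.99 and 22.6 FPKM in WT, 13.2, 10.4 and 7.18 in 35S:ERF13:MYC, and 47.7, 46.8 and 60.3 in erf13-3. PSAL (AT4G12800) had 12.98, 14.4 and 15.8 FPKM in WT, 8.17, 6.51 and 3.85 in 35S:ERF13:MYC, and 36.2, 46.2 and 51.8 in erf13-3. PSAE-1 (AT4G28750) had 9.46, 12.3 and 11.8 FPKM in WT, 8.35, 4.12 and 3.24 in 35S:ERF13:MYC, and 27.1, 25.96 and 30.2 in erf13-3. PSAE-1 overlaps the member AT4G28755 by 436 bases on the opposite strand, and AT4G28755 had 18.5, 18.2 and 24.6 FPKM in WT, 11.8, 7.76 and 4.16 in 35S:ERF13:MYC, and 45.5, 34.3 and 63.6 in erf13-3. The overlapping PSAH-1 (AT3G16140) had 6.77, 6.64 and 8.11 FPKM in WT, 4.97, 3.31 and 2.21 in 35S:ERF13:MYC, and 18.97, 21.01 and 24.9 in erf13-3. For photosystem II, PSBW (AT2G30570) had 15.03, 16.1 and 14.1 FPKM in WT, 7.34, 5.32 and 4.58 in 35S:ERF13:MYC, and 32.97, 28.5 and 36.6 in erf13-3.

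Enzymes of the Calvin cycle were also members. GAPB (AT1G42970), a subunit of chloroplast glyceraldehyde-3-phosphate dehydrogenase, had 9.45, 11.2 and 10.2 FPKM in WT, 4.81, 2.83 and 2.1 in 35S:ERF13:MYC, and 31.8, 32.5 and 33.5 in erf13-3. SBPASE (AT3G55800), sedoheptulose-bisphosphatase, had 1.43, 2.36 and 2 FPKM in WT, 1.39, 0.75 and 0.65 in 35S:ERF13:MYC, and 9.84, 7.78 and 8.4 in erf13-3. The WT and 35S:ERF13:MYC libraries of SBPASE nearly met, at 1.43 and 1.39 FPKM. The plastid aldolase gene FBA2 (AT4G38970) and APE2 (AT5G46110), the triose phosphate exporter of the chloroplast, were members as well. PSBTN (AT3G21055), PPL1 (AT3G55330) and AT2G28605 belong to photosystem II or its relatives, PnsB4 (AT1G18730) and PIFI (AT3G15840) to the NDH complex and its function, AT1G52220 to the proteins that curve thylakoids, and GDCH (AT2G35370) to photorespiration.

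The 19 photosynthesis members varied among the libraries of 35S:ERF13:MYC in a common order. Replicate 1 was the highest of the 3 for 16 of 19 and replicate 3 the lowest for 16 of 19. Their median log2 deviations from the line's mean were 0.40, -0.08 and -0.39 in replicates 1 to 3. Over the 154 members these medians were 0, -0.055 and 0.043. In the immune role they were -0.08, 0.05 and 0.05, so that the order of the 35S:ERF13:MYC libraries seen in the photosynthesis members was not seen there. In erf13-3, replicate 3 was the highest library for 15 of 19 photosynthesis members and for 98 of all 154, against 5618 of 18632 genes with a mean of at least 1 FPKM. In WT, replicate 3 was likewise the highest library for 88 of the 154, against 5623 of those genes.

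**Figure D3:**
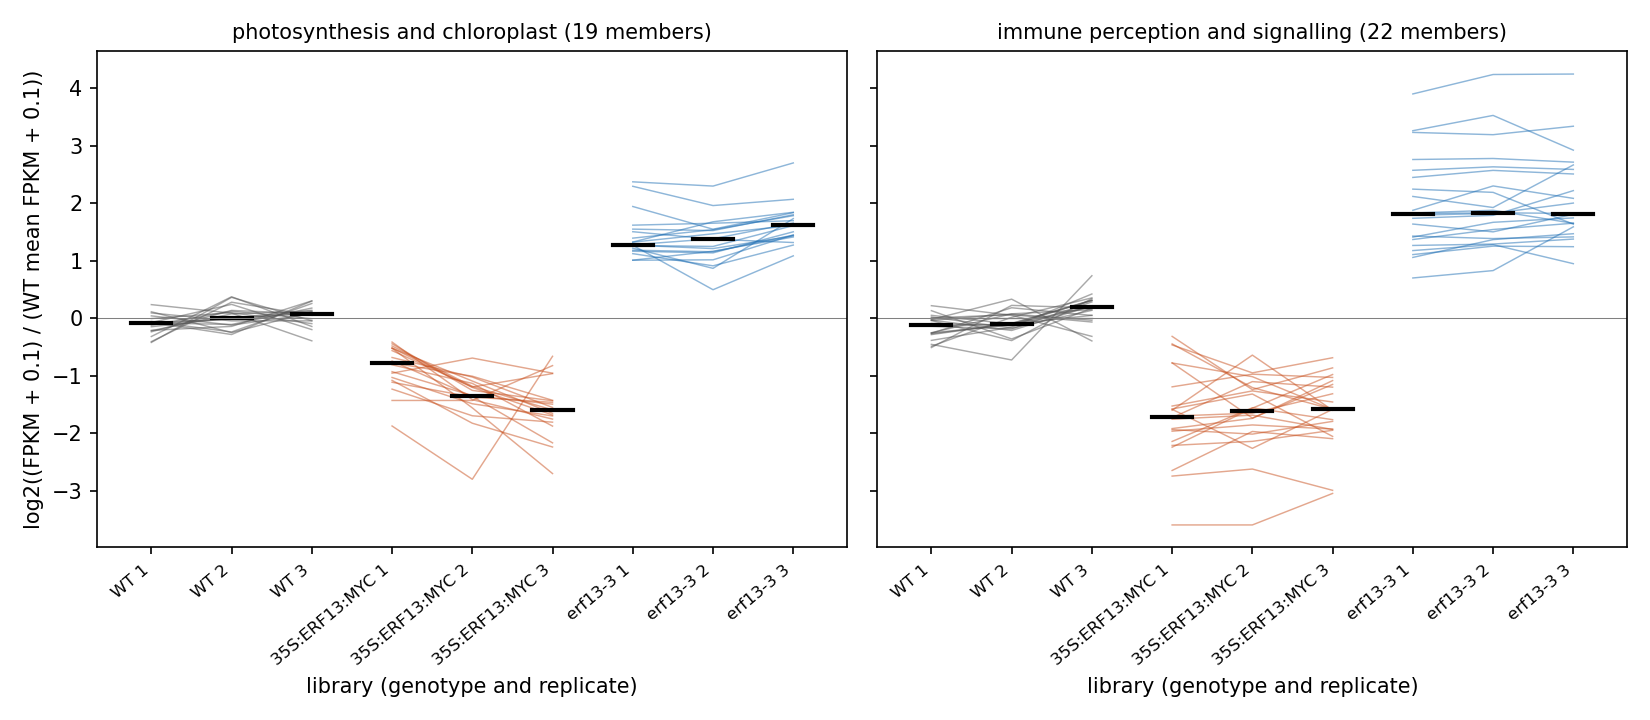
Each member's log2 of FPKM + 0.1 over its WT mean + 0.1 in the 9 libraries, for 19 photosynthesis members (left) and 22 immune members (right), with lines joining the values of a member within a genotype and black bars at the median of each library. In 35S:ERF13:MYC the photosynthesis bars differ between the 3 libraries, with replicate 1 nearest to WT, while the immune bars lie close together.

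A list of 46 green tissue genes held 9 of the members. It held 2 further genes that met the rule and are not described here. Of the 34 tested that are no members, none was called higher and 20 lower in 35S:ERF13:MYC, where 13.8% and 17.7% of all genes were called. In erf13-3, 27 of the 34 were called higher and none lower, against 13.6% and 13.7% of all genes. Without WT replicate 1 or without erf13-3 replicate 3, 22 were called higher and 1 lower in erf13-3. With the replicate number as a block in a fit of the WT and erf13-3 libraries alone, 1 was also called lower. In 35S:ERF13:MYC, 1 was called higher without replicate 3 of that line or without erf13-3 replicate 3. Median log2 fold changes of the 34 were -0.67 in 35S:ERF13:MYC and 0.93 in erf13-3, against 0.02 and 0.015 over all genes. The same shares of all genes apply to each list below. The list's behaviour in these libraries was known when it was chosen, so it is no independent evidence. Levels of list genes that are no members are given here and below as the mean ± SD of the 3 libraries of a genotype. PSBR (AT1G79040), a photosystem II subunit, had 264 ± 14.9 FPKM in WT, 109 ± 10.8 in 35S:ERF13:MYC and 428 ± 36.4 in erf13-3, with log2 fold changes from WT of -1.39 (SE 0.11, edgeR adjusted p = 4.1e-06) and 0.56 (SE 0.11, edgeR adjusted p = 0.0024), respectively. RCA (AT2G39730), the activase of Rubisco, had 71.6 ± 6.39 FPKM in WT, 36.7 ± 5.57 in 35S:ERF13:MYC and 129.5 ± 2.904 in erf13-3, with log2 fold changes from WT of -1.08 (SE 0.11, edgeR adjusted p = 2.8e-05) and 0.72 (SE 0.11, edgeR adjusted p = 0.00047), respectively. For PSBQ2 (AT4G05180) the values were 7.66 ± 0.588 FPKM in WT, 5.61 ± 1.54 in 35S:ERF13:MYC and 25.9 ± 2.98 in erf13-3, with log2 fold changes from WT of -0.56 (SE 0.20, edgeR adjusted p = 0.0499) and 1.62 (SE 0.17, edgeR adjusted p = 3e-05), respectively, and its call in 35S:ERF13:MYC ended when any of several libraries was left out (adjusted p up to 0.18).

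Within this list, 9 of the 34 genes stood above WT in 35S:ERF13:MYC without being called. They include close copies whose reads cannot be assigned with certainty, and their libraries were scattered. LHCB1.2 (AT1G29910), a near-identical copy of CAB1, had 0.46, 1.71 and 0.54 FPKM in WT, 4.25, 1.47 and 0.22 in 35S:ERF13:MYC, and 5.77, 6.32 and 8.26 in erf13-3. RBCS3B (AT5G38410), of the small subunit of Rubisco, had 0.51, 2.82 and 1.91 FPKM in WT, 9.22, 5.29 and 0.29 in 35S:ERF13:MYC, and 7.71, 9.22 and 17.1 in erf13-3. Both were high in replicate 1 and low in replicate 3 of 35S:ERF13:MYC, and both were named after their values had been seen. Summed over the 35 listed green tissue genes that are no members, the level was 905 to 989 FPKM in WT, 625, 507 and 472 in replicates 1 to 3 of 35S:ERF13:MYC, and 1540 to 1804 in erf13-3. The part that differing amounts of green tissue in the root samples had in the photosynthesis values was not tested.

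Of 8 tested genes of chlorophyll synthesis and its GLK regulators, 5 were called lower and none higher in 35S:ERF13:MYC, and 7 were called higher and none lower in erf13-3. HEMA1 (AT1G58290), which starts tetrapyrrole synthesis, had 23.8 ± 0.662 FPKM in WT, 16.9 ± 0.115 in 35S:ERF13:MYC and 31.5 ± 2.83 in erf13-3, with log2 fold changes from WT of -0.61 (SE 0.08, edgeR adjusted p = 0.00012) and 0.26 (SE 0.07, edgeR adjusted p = 0.022), respectively. CRD1 (AT3G56940), a cyclase of the chlorophyll branch, had 24.6 ± 1.89 FPKM in WT, 17.8 ± 2.15 in 35S:ERF13:MYC and 50.1 ± 2.78 in erf13-3, with log2 fold changes from WT of -0.58 (SE 0.12, edgeR adjusted p = 0.0036) and 0.89 (SE 0.12, edgeR adjusted p = 0.00014), respectively. PORB (AT4G27440), a light-dependent protochlorophyllide reductase, had 3.597 ± 0.542 FPKM in WT, 2.08 ± 0.318 in 35S:ERF13:MYC and 12.2 ± 2.75 in erf13-3, with log2 fold changes from WT of -0.97 (SE 0.26, edgeR adjusted p = 0.015) and 1.56 (SE 0.21, edgeR adjusted p = 0.00019), respectively. Without WT replicate 1 or without erf13-3 replicate 1, the number called higher in erf13-3 was 3. The call of HEMA1 in erf13-3 (adjusted p up to 0.10) and that of PORB in 35S:ERF13:MYC (up to 0.058) each ended when 1 library was left out.

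Genes of iron, nitrogen and sugar use were the next role, at a median of 2.72 times WT in erf13-3 and 0.333 of WT in 35S:ERF13:MYC. NAS1 (AT5G04950), which makes the metal chelator nicotianamine, had 75.8, 91.5 and 102 FPKM in WT, 27.1, 25.5 and 31.3 in 35S:ERF13:MYC, and 222, 220.1 and 244 in erf13-3. IRT1 (AT4G19690), the main iron importer of the root epidermis, had 14.02, 13.1 and 6.71 FPKM in WT, 1.6, 3.66 and 6.51 in 35S:ERF13:MYC, and 28.2, 28.4 and 30.6 in erf13-3. The lowest WT library of IRT1 (6.71) and the highest of 35S:ERF13:MYC (6.51) nearly met, both being replicate 3. BT2 (AT3G48360), a BTB and TAZ domain protein known from nitrogen and sugar signalling, had 35.7, 34.8 and 26.2 FPKM in WT, 7.29, 9.71 and 13.2 in 35S:ERF13:MYC, and 58.8, 65.96 and 95.2 in erf13-3. Its WT replicate 3 was the lowest of WT, and its erf13-3 replicate 3 the highest of erf13-3.

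The asparagine synthetase gene ASN1 (AT3G47340), which carbon starvation and darkness induce, stood at means of 3.93 FPKM in WT, 1.32 in 35S:ERF13:MYC and 11.3 in erf13-3. The other members of the role were the cation exchanger gene CHX16 (AT1G64170), the amino acid exporter family gene UMAMIT26 (AT1G11460), which has a near-identical copy, and cwINV6 (AT5G11920), annotated as a fructan exohydrolase. TRE1 (AT4G24040), the trehalase gene, the acid phosphatase gene PAP20 (AT3G52780), the transporter genes AT5G46040 and ABCG39 (AT1G66950), and the aquaporin gene BETA-TIP (AT1G17810) complete it.

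The list of iron uptake and coumarin genes moved only in part with its members NAS1 and IRT1. A further 2 genes of the list met the rule and are not described here. Of 23 tested genes that are no members, 7 were called higher and 9 lower in 35S:ERF13:MYC, and 9 higher and 4 lower in erf13-3. IRT2, FRO2, AHA2, F6'H1, NAS2 and MTPA2 were called in both directions of the members. FRO3 and FER1 were called lower in both lines, and BHLH38 and BHLH39 higher in both. F6'H1 (AT3G13610), which makes the precursor of iron-mobilising coumarins, had 23.1 ± 5.55 FPKM in WT, 13.8 ± 0.739 in 35S:ERF13:MYC and 76.4 ± 8.85 in erf13-3, with log2 fold changes from WT of -0.86 (SE 0.18, edgeR adjusted p = 0.0039) and 1.58 (SE 0.17, edgeR adjusted p = 3.1e-05), respectively. MTPA2 (AT3G58810), a vacuolar metal transporter, had 12.05 ± 0.671 FPKM in WT, 3.66 ± 1.22 in 35S:ERF13:MYC and 19.1 ± 1.64 in erf13-3, with log2 fold changes from WT of -1.83 (SE 0.19, edgeR adjusted p = 2.3e-05) and 0.53 (SE 0.16, edgeR adjusted p = 0.032), respectively, and its call in erf13-3 ended without 1 of several libraries (adjusted p up to 0.099). NRAMP1 (AT1G80830), a manganese and iron importer, had 48.6 ± 4.98 FPKM in WT, 53.5 ± 1.82 in 35S:ERF13:MYC and 13.6 ± 2.31 in erf13-3, with log2 fold changes from WT of 0.03 (SE 0.12, edgeR adjusted p = 0.88) and -1.97 (SE 0.12, edgeR adjusted p = 6.1e-07), respectively. NRAMP1 thus fell in erf13-3, where IRT1 and NAS1 stood above WT.

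Of 16 tested nitrate genes, 2 were called higher and 6 lower in 35S:ERF13:MYC, and 9 higher and 3 lower in erf13-3. NIA1 (AT1G77760), a nitrate reductase, had 29.6 ± 4.89 FPKM in WT, 18.1 ± 2.42 in 35S:ERF13:MYC and 168 ± 20.5 in erf13-3, with log2 fold changes from WT of -0.83 (SE 0.16, edgeR adjusted p = 0.0024) and 2.37 (SE 0.16, edgeR adjusted p = 1e-06), respectively. RFNR2 (AT1G30510), a root ferredoxin reductase, had 85.8 ± 2.21 FPKM in WT, 127 ± 3.71 in 35S:ERF13:MYC and 209.7 ± 12.2 in erf13-3, with log2 fold changes from WT of 0.45 (SE 0.08, edgeR adjusted p = 0.0011) and 1.15 (SE 0.08, edgeR adjusted p = 1e-06), respectively. HRS1 (AT1G13300), a repressor of nitrate and phosphate responses, had 64.5 ± 3.94 FPKM in WT, 60.1 ± 1.67 in 35S:ERF13:MYC and 25.8 ± 3.56 in erf13-3, with log2 fold changes from WT of -0.21 (SE 0.11, edgeR adjusted p = 0.15) and -1.46 (SE 0.11, edgeR adjusted p = 2.2e-06), respectively. NIA1 moved as the members did, RFNR2 rose in both lines, and HRS1 fell in erf13-3. Without 35S:ERF13:MYC replicate 2, 2 nitrate genes were called lower in that line, and without WT replicate 1, 5 were called lower in erf13-3, as with the replicate block in the fit of the WT and erf13-3 libraries alone.

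The 10 hormone members cover several hormones, at a median of 2.89 times WT in erf13-3 and 0.342 in 35S:ERF13:MYC. PYL3 (AT1G73000), an abscisic acid receptor, had 0.67, 1 and 1.17 FPKM in WT, 0 in every library of 35S:ERF13:MYC, and 1.27, 2.6 and 2.7 in erf13-3, and against the floor of 3 counts per library its WT level was at least 3.78-fold higher than in 35S:ERF13:MYC. NCED2 (AT4G18350) acts in abscisic acid synthesis. ACS7 (AT4G26200) and ACS11 (AT4G08040) make the ethylene precursor, and ACS11 was at 8.36 times WT in erf13-3. AOC2 (AT3G25770) makes jasmonate and CYP94C1 (AT2G27690) breaks down its active form, and they stood at 2.99 and 3.805 times WT. UGT74F2 (AT2G43820), which adds glucose to salicylate, was the most abundant, with means of 15.8 FPKM in WT, 4.77 in 35S:ERF13:MYC and 38.3 in erf13-3. GRX480 (AT1G28480), a glutaredoxin that links salicylate and jasmonate signals, MES17 (AT3G10870), which cleaves methylated auxin, and RR17 (AT3G56380), a cytokinin response regulator, complete the role.

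Genes of salicylate and systemic defence held no member, though 1 gene of the list met the rule and is not described here. Of 10 tested, 1 was called higher and 1 lower in 35S:ERF13:MYC, against 13.8% and 17.7% of all genes. In erf13-3, 3 were called higher and 2 lower, against 13.6% and 13.7%. With 10 genes, the counts are too few for a comparison with those shares. Without WT replicate 2, only 1 was called higher in erf13-3. The median log2 fold changes were 0.04 and -0.15. ICS1 (AT1G74710), the entry enzyme of salicylate synthesis, had 5.96 ± 0.295 FPKM in WT, 5.45 ± 1.02 in 35S:ERF13:MYC and 2.86 ± 0.134 in erf13-3, with log2 fold changes from WT of -0.24 (SE 0.14, edgeR adjusted p = 0.2) and -1.19 (SE 0.15, edgeR adjusted p = 9.1e-05), respectively. NPR1 (AT1G64280), the salicylate receptor and coactivator, had 18.9 ± 0.779 FPKM in WT, 17.97 ± 0.723 in 35S:ERF13:MYC and 14.4 ± 0.941 in erf13-3, with log2 fold changes from WT of -0.18 (SE 0.09, edgeR adjusted p = 0.16) and -0.52 (SE 0.10, edgeR adjusted p = 0.0015), respectively. WRKY54 (AT2G40750) had 0.453 ± 0.319 FPKM in WT, 2.61 ± 0.623 in 35S:ERF13:MYC and 0.633 ± 0.196 in erf13-3, with log2 fold changes from WT of 2.39 (SE 0.40, edgeR adjusted p = 0.00091) and 0.33 (SE 0.51, edgeR adjusted p = 0.68), respectively. ICS1 and NPR1 thus fell in erf13-3, where the immune members stood above WT, and WRKY54 rose in 35S:ERF13:MYC. The 3 called higher in erf13-3 were SARD4, PAD4 and SAG101, with log2 fold changes of 0.513, 0.501 and 0.64. WRKY70 was the 1 called lower in 35S:ERF13:MYC, at -1.377.

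Transcription regulators were the scarcest role in WT, with a median of 0.802 FPKM, and 8 of 14 were below 1 FPKM there. AT1G67270, a zinc-finger protein, had 0.43, 0.38 and 0.47 FPKM in WT, 0 in every library of 35S:ERF13:MYC, and 1.64, 2.44 and 1.47 in erf13-3. AT1G29600, a CCCH zinc-finger protein, had 0.85, 0.75 and 0.27 FPKM in WT, 0 in every library of 35S:ERF13:MYC, and 1.86, 2.17 and 0.93 in erf13-3. Both were at 0 in all libraries of 35S:ERF13:MYC, and their WT levels were at least 3.33-fold and 3.89-fold higher against the floor. MYBL2 (AT1G71030), which represses anthocyanin synthesis, fell most among the more abundant regulators, from 5.08 FPKM in WT to 0.513 in 35S:ERF13:MYC, with 14.05 in erf13-3. The GRAS family gene AT3G13840 had the largest ratio in erf13-3, 11.3 times WT. It had 0.46, 0.69 and 1.16 FPKM in WT, 0.09, 0.14 and 0.05 in 35S:ERF13:MYC, and 8.05, 8.19 and 9.84 in erf13-3. ZF1 (AT5G67450), WRKY71 (AT1G29860), MYB2 (AT2G47190), the TCP genes TCP2 (AT4G18390) and TCP24 (AT1G30210), the flowering repressor gene FLC (AT5G10140), AGL102 (AT1G47760), HEC3 (AT5G09750), LOB (AT5G63090), which marks organ boundaries, and AT2G02060 complete the role.

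The 35 members placed in none of the roles ranged from 1.60 to 169 FPKM in erf13-3. AT4G01870, a TolB-like protein, had 63.97, 69.8 and 69.9 FPKM in WT, 21.1, 22.9 and 24.3 in 35S:ERF13:MYC, and 159, 161 and 186 in erf13-3. AT5G04120, of the phosphoglycerate mutase family, had 66.4, 58.02 and 74.02 FPKM in WT, 13.7, 20.4 and 21.9 in 35S:ERF13:MYC, and 143, 184 and 177 in erf13-3. AT3G13435, an uncharacterized protein, had 22.8, 27.3 and 36.02 FPKM in WT, 11.7, 11.5 and 14.1 in 35S:ERF13:MYC, and 63.01, 61.2 and 76.96 in erf13-3. In these 3 abundant genes the highest library of 35S:ERF13:MYC was well below the lowest of WT. AT4G09110, a RING-type protein of the kind that includes ubiquitin ligases, had 0.87, 0.68 and 0.81 FPKM in WT, 0 in every library of 35S:ERF13:MYC, and 4.03, 3.39 and 4.04 in erf13-3, at least 4.22-fold higher in WT than in 35S:ERF13:MYC against the floor. AT1G49030, of the PLAC8 family, had 0.79, 0.16 and 0.32 FPKM in WT, 0, 0.08 and 0 in 35S:ERF13:MYC, and 3.77, 4.46 and 4.25 in erf13-3, and its single count in 35S:ERF13:MYC stood against 16 in WT (ratio 16.0, interval 2.49 to 671).

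Of the remaining members, AT3G28290 and AT3G28300 (both AT14A) have identical transcripts and identical values in every library, so they count as 1 measurement. AT1G55673 overlaps the photosystem gene PSAG on the opposite strand by 479 bases. USPL1 (AT1G49320), CCL (AT3G26740), ENH1 (AT5G17170), PP2-A3 (AT2G26820) and 5PTASE11 (AT1G47510) have gene symbols. The RING genes AT2G46495 and AT2G34990, the PLAC8 gene AT1G58320, the F-box gene AT1G73120, the lipase gene AT5G24230 and the repeat proteins AT5G53490, AT2G44920 and AT4G10720 have annotated domains, as do AT1G21670, AT5G54790, AT5G64870, AT1G77145 and AT2G22460. The products of AT5G54585, AT1G49000, AT3G51510, AT1G36622, AT1G36640 and AT4G28460 are uncharacterized. AT1G58320 stood at 7.58 and AT1G73120 at 6.79 times WT in erf13-3.

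Lists of root structure held no member, though 3 genes of the epidermis and cuticle list met the rule and are not described here. All 10 tested Casparian strip genes were called lower in 35S:ERF13:MYC, and 6 were called higher and none lower in erf13-3, with median log2 fold changes of -0.91 and 0.36. CASP5 (AT5G15290), a membrane scaffold protein of the strip, had 37.99 ± 3.38 FPKM in WT, 18.8 ± 2.26 in 35S:ERF13:MYC and 61.01 ± 2.31 in erf13-3, with log2 fold changes from WT of -1.13 (SE 0.11, edgeR adjusted p = 1.3e-05) and 0.54 (SE 0.10, edgeR adjusted p = 0.0017), respectively. PER64 (AT5G42180), a peroxidase that lays down its lignin, had 115 ± 12.1 FPKM in WT, 59.9 ± 4.704 in 35S:ERF13:MYC and 149 ± 9.17 in erf13-3, with log2 fold changes from WT of -1.06 (SE 0.12, edgeR adjusted p = 3.5e-05) and 0.23 (SE 0.11, edgeR adjusted p = 0.17), respectively. With the replicate number as a block in a fit of the WT and erf13-3 libraries alone, PER64 was called higher in erf13-3. CASP5 reached the limit that the rule set for 35S:ERF13:MYC but not that for erf13-3, and PER64 reached neither.

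Of 24 tested epidermis and cuticle genes, 3 were called higher and 10 lower in 35S:ERF13:MYC, and 12 higher and 3 lower in erf13-3. CER4 (AT4G33790), an alcohol-forming reductase of wax and suberin, had 7.897 ± 1.96 FPKM in WT, 6.53 ± 0.425 in 35S:ERF13:MYC and 0.08 ± 0.05196 in erf13-3, with log2 fold changes from WT of -0.39 (SE 0.17, edgeR adjusted p = 0.12) and -6.72 (SE 0.35, edgeR adjusted p = 1.9e-07), respectively. GPAT4 (AT1G01610), an acyltransferase of cutin, had 98.05 ± 9.07 FPKM in WT, 88.3 ± 0.974 in 35S:ERF13:MYC and 34.7 ± 1.72 in erf13-3, with log2 fold changes from WT of -0.27 (SE 0.10, edgeR adjusted p = 0.06) and -1.64 (SE 0.10, edgeR adjusted p = 6.4e-07), respectively. PDF2 (AT4G04890), a homeodomain factor of the epidermis, had 1.02 ± 0.133 FPKM in WT, 0.933 ± 0.136 in 35S:ERF13:MYC and 4.297 ± 0.751 in erf13-3, with log2 fold changes from WT of -0.22 (SE 0.19, edgeR adjusted p = 0.39) and 1.95 (SE 0.16, edgeR adjusted p = 3.5e-06), respectively. The genes with the smallest p in this list thus moved in erf13-3, and CER4 and GPAT4 did so in the direction opposite to that of the members. Of 12 tested root markers, 1 was higher (0 to 3 under the alternatives) and 4 lower in 35S:ERF13:MYC, and 4 higher (7 with the replicate block in the fit of the WT and erf13-3 libraries alone, PHT1;1 among them) and 1 lower in erf13-3. SCR (AT3G54220), of the endodermis, had 18.9 ± 1.37 FPKM in WT, 24.1 ± 0.754 in 35S:ERF13:MYC and 34.3 ± 1.45 in erf13-3, with log2 fold changes from WT of 0.23 (SE 0.10, edgeR adjusted p = 0.088) and 0.72 (SE 0.10, edgeR adjusted p = 0.00018), respectively. PYK10 (AT3G09260), a glucosidase that is the most abundant of them, had 12004 ± 1008 FPKM in WT, 11191 ± 831 in 35S:ERF13:MYC and 7789 ± 277 in erf13-3, with log2 fold changes from WT of -0.22 (SE 0.13, edgeR adjusted p = 0.23) and -0.76 (SE 0.13, edgeR adjusted p = 0.0011), respectively. PHT1;1 (AT5G43350), a phosphate transporter with a close copy, had 221 ± 99.99 FPKM in WT, 84.3 ± 7.33 in 35S:ERF13:MYC and 341 ± 65.5 in erf13-3, with log2 fold changes from WT of -1.53 (SE 0.28, edgeR adjusted p = 0.0015) and 0.47 (SE 0.27, edgeR adjusted p = 0.23), respectively.

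**Figure D4:**
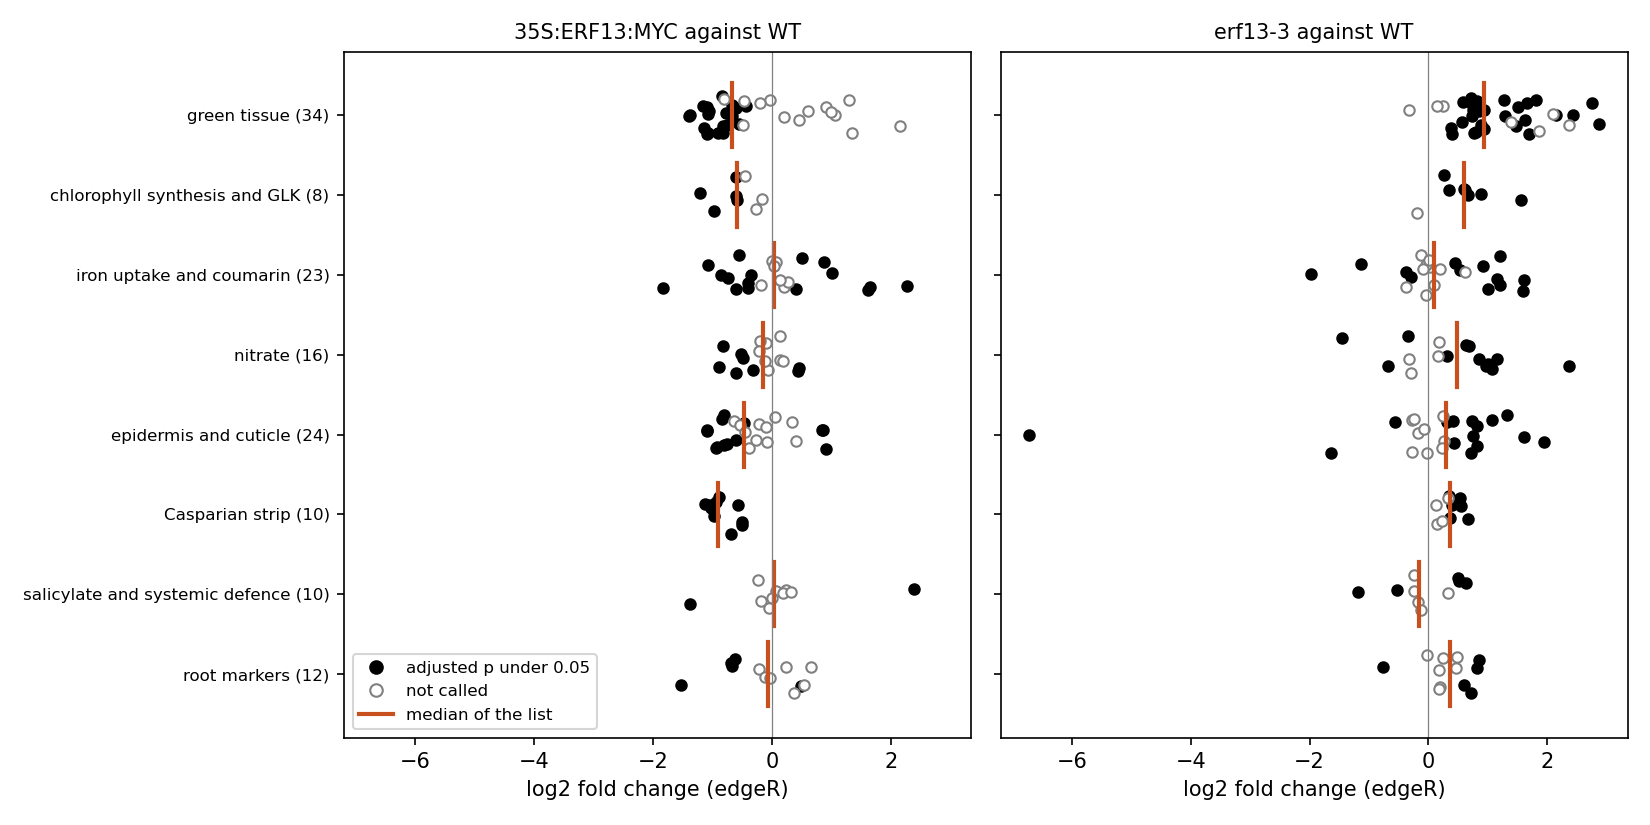
Log2 fold change (edgeR) of each tested gene that is no member, by gene list (rows, with the number of genes), in 35S:ERF13:MYC against WT (left) and erf13-3 against WT (right), with filled points at an adjusted p under 0.05 and bars at the list's median. Green tissue, chlorophyll and Casparian strip medians lie below 0 on the left (-0.67, -0.60 and -0.91) and above 0 on the right (0.93, 0.61 and 0.36), while the iron medians lie near 0 on both sides.

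The members lay on all 5 chromosomes, with 43, 20, 27, 27 and 37 on chromosomes 1 to 5. Next to each other in the genome lay 8 pairs, which hold 16 members (10.4%). The share was 12.8% among the 78 genes of the mirrored rule, 5.38% among the 130 genes at or below 0.5 of WT in both lines and 2.82% among the 71 at least 2 times WT in both. Of the 8 pairs, 3 overlap on opposite strands (AT2G39375 with EXO70H2, ROPGEF13 with PSAH-1, and PSAE-1 with AT4G28755). The WAKL4 and WAKL5 genes (chr1:5532298-5535060 and chr1:5535766-5538501, both on the plus strand) and the pair AT1G30720 and AT1G30730 (chr1:10897925-10899975 and chr1:10900681-10902626, plus strand) each leave a gap of 705 bases. In all, 36 members overlap another annotated gene, 31 of them a gene that is itself listed in the files, and 9 have a copy of at least 90% identity over at least 50% of the transcript.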

How the data were processed

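Per the file headers, the authors deposited 1 table per library, for 9 libraries, with an expected count and an FPKM value for each listed gene. Expected counts are estimates that need not be whole. The 2 comparison tables that the authors deposited give mean FPKM values, a log2 ratio of them and a score headed Probability, whose definition is not stated. Not given in the sources used here are the aligner, the counting tool, the annotation and the strand setting. The members, roles and gene lists were chosen with earlier results of these data known.

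After rounding the expected counts, edgeR 4.0.16 (R 4.3.3) was run (filterByExpr with a minimum count of 10, TMM factors, 1 quasi-likelihood fit over all 9 libraries, no covariate, Benjamini-Hochberg adjusted p under 0.05). The replicate numbers paired the WT and erf13-3 libraries by their values, with same-numbered deviations correlating at 0.177, 0.221 and 0.445. The labels name no shared batch, and between WT and 35S:ERF13:MYC the numbers did not pair (-0.259, 0.094 and -0.197). DESeq2 1.42.0 and limma 3.58.1 served as alternatives. Values in every library are given for members in a gene list, for the 15 highest in erf13-3, for the 5 at 0 in 35S:ERF13:MYC, for the 10 with the largest ratio of erf13-3 to 35S:ERF13:MYC among the rest and for members next to another member. Of each list, the 3 called genes that are no members with the smallest p are named, except 1 that is not reported here. Where 35S:ERF13:MYC held no count, folds are lower bounds against 3 counts per library. Ratios from 1 to 3 counts carry exact 95% intervals. Both cover counting error only.

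Positions and sequences are from RefSeq's TAIR10.1. The build is not named in the files, but all 2547 deposited positions overlapped the TAIR10.1 gene of the same locus, 1787 with the same start and end. Copies were found with blastn 2.17.0 on transcripts.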

Additional observations from a re-analysis of the deposited data

How the results depend on the processing

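The size of the set depends on the rule. It held 387 genes at a factor of 1.5 in place of 2 (all 154 among them), 49 at a factor of 3 and 83 at an erf13-3 mean of at least 5 FPKM. It held 169 at a mean of at least 0.1 FPKM, 196 with no condition on overlap, and 163 with TMM-scaled CPM in place of FPKM, which share 137 with the 154. Leaving out 1 library at a time gave 145 to 172 members, of which 136 to 153 were shared. With 2 libraries in a group, the other groups lend their spread to the fit.

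Genes called in 35S:ERF13:MYC numbered 6209, and 3903 to 6725 with 1 library left out, the lowest without replicate 2 of that line. Genes called lower there and higher in erf13-3 numbered 626, and 410 to 637 with 1 library left out, at 411 without WT replicate 2 and 410 without 35S:ERF13:MYC replicate 2. Genes called in erf13-3 numbered 5381, and 4066 to 5441. The share of calls that were higher was 43.7% in 35S:ERF13:MYC and 50% in erf13-3 with TMM factors, 41.5% and 48.6% with DESeq2's size factors in edgeR, and 59.1% and 70.6% with limma-trend on log2(FPKM + 0.1), or 59.8% and 71.3% with a pseudocount of 1. On that FPKM scale the median of all genes lay at 0.13 and 0.153 (0.10 and 0.122), so members' FPKM ratios to WT include a shift of that size. These fits differ from edgeR in the test, the input and the genes kept as well as in the scaling, and the cause was not tested.

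With the replicate number as a block over all 9 libraries, 6523 genes were called in 35S:ERF13:MYC, 5494 in erf13-3 and 682 in opposite directions. In a fit of the WT and erf13-3 libraries alone, added after seeing the data, 4491 genes were called in erf13-3, and 7200 with the block, of which 5324 were among the 5381. WT replicate 1 deviated more like erf13-3 replicate 2 (0.267) than like its own number, so not every library correlated best with its own number. In that fit the block ended no call of a named list gene in erf13-3. Over all 9 libraries it ended only that of PSBQ2 in 35S:ERF13:MYC.

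The gene lists and their named genes were recomputed under the same settings, an addition made after seeing the data. Of these values, 1212 were taken as unchanged: counts within 1.5 times, and fold changes that kept their direction and side of the threshold. A fold change not called in the main fit was also taken as unchanged where its sign turned. Of the rest, 30 counts moved, 19 fold changes lost their call and 17 gained it. No fold change called in the main fit turned its sign. With DESeq2 the numbers called were 5778, 5061 and 587. With few counts in 35S:ERF13:MYC, the depth of a fall cannot be told for the 5 members at 0 there.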
